A study of Mus musculus with 2 samples.

Results

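The genes described here run the defence against peroxides and superoxide, the synthesis and use of glutathione, the handling of iron, and the group of proteins that carry selenocysteine. They were taken from the table by gene symbol: selenoprotein (Seleno), glutathione peroxidase, peroxiredoxin, thioredoxin, thioredoxin reductase, superoxide dismutase and glutathione transferase (mu, pi and theta class) names, and a short list of glutathione, NRF2, KEAP1 and iron genes. The rule found 53 genes of the 12707 listed. Gss, which the list also names, was not analysed here.

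RNA was sequenced from live CD45-negative cells of Py8119 tumours, with 1 library per host genotype. Py8119 is a mouse mammary tumour line with mesenchymal character, so the tumour cells of both libraries come from 1 line. One library came from hosts labelled Mtdh knock out (KO) and the other from hosts labelled Mtdh wild type (WT). The injected tumour cells carried wild-type Mtdh in both, so the comparison asks how the CD45-negative compartment differs when the host lacks metadherin. The labels give no age, sex, strain, number of animals or kind of knockout. Because there is no replicate, no test was made, and every difference below describes this pair of libraries.

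Hydrogen peroxide is reduced in mammalian cells by glutathione peroxidases and peroxiredoxins, which draw electrons from glutathione and thioredoxin. The transcription factor NRF2 (gene Nfe2l2), held back by KEAP1, drives many of these genes. Free iron turns peroxides into radicals, and iron-driven peroxidation of membrane lipids is the basis of ferroptosis, which Gpx4 and Aifm2 (the protein FSP1) oppose. Selenoproteins place selenocysteine at a UGA codon that would otherwise end translation, mostly at the catalytic site.

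Of the 53 genes, many of them selected by a selenoprotein name, 18 carried in-frame TGA codons in the annotated reading frame, and in each of the 18 the annotation marks these codons as selenocysteine. Selenop, the plasma selenium carrier, had 10 of them and each of the other genes had 1. The stretches below show where this codon lies in genes the results turn on: Selenoh, Msrb1, Txnrd2 and Gpx3, whose reads differed most between the libraries among the 18, and the better covered Gpx4, Selenow and Txnrd1. Capitals mark the selenocysteine TGA, and the sequences are coding strand, from the GENCODE M21 transcripts (build GRCm38).
Selenoh, codon 38 of 116: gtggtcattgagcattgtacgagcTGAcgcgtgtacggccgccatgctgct
Msrb1, codon 95 of 116: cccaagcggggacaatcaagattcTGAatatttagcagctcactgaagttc
Txnrd2, codon 526 of 527: ctggagcctactgtgactggttgcTGAggc
Gpx3, codon 73 of 226: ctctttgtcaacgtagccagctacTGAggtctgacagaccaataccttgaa
Gpx4, codon 73 of 197: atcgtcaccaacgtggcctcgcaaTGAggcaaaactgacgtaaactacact
Selenow, codon 13 of 88: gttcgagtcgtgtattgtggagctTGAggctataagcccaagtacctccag
Txnrd1, codon 498 of 499: ggagacatcctccagtctggctgcTGAggt
In the thioredoxin reductases the codon is the last but 1, whereas in Selenow, Gpx3 and Gpx4 it lies early in the frame.

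Several iron genes carry another element. A hairpin with the loop CAGTGN, the iron-responsive element, binds the iron regulatory proteins, which block translation from a 5′ UTR and stabilise the mRNA from a 3′ UTR. The search required C, 5 bases, CAGTGN with a last base other than G, and 5 bases that pair with the first 5 (A with T, G with C or T), on the transcript strand. It matched the 5′ UTR of Fth1, Ftl1 and Slc40a1 and, at 4 places, the 3′ UTR of Tfrc, where 1 site is shown. Among all listed genes, 0.135% had a match in the 5′ UTR and 0.611% in the 3′ UTR. Capitals mark the loop in these GENCODE M21 sequences.
Fth1, 5′ UTR: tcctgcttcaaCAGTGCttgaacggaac
Ftl1, 5′ UTR: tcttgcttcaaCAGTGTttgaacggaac
Slc40a1, 5′ UTR: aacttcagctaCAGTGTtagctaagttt
Tfrc, 3′ UTR: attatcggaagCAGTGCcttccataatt
A match is a stretch of letters, and binding was not measured.

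Values are given as recovered reads and as RPM (reads per 1000000 recovered reads), both computed from the deposited log2 values, or as FPKM as deposited (fragments per kilobase and per 1000000 fragments, where the length is the whole genomic span, introns included). The libraries held 23381744 recovered reads for the KO host and 26069421 for the WT host. The ratio of RPM, KO host over WT host, carries a 95% exact binomial counting interval, which covers counting error only. Reads of 38 of the 53 genes were whole numbers within 0.1 in both libraries. The other 15, among them Fth1, Ftl1, Prdx1, Prdx2, Gpx4, Gstp1 and Gstp2, include fractions of a read, and their values are less certain.

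As a set, the 53 genes did not lean to either side. Of the 50 with 100 or more reads over both libraries, 25 had a ratio above 1 and 25 below 1. The median log2 ratio was 0.03 (quartiles -0.39 and 0.26), against -0.06 over all 10813 genes with that depth. A ratio of 2-fold or more was reached by 4 of the 50 (8%) on the higher side and 6 (12%) on the lower side in the KO host library, where all genes gave 8.9% and 12%. The genes that were higher were Srxn1, Aifm2, Gclc and Prdx5, and those that were lower were Gstm1, Msrb1, Selenoh, Keap1, Slc40a1 and Slc7a11. These shares are near the background, so the set as a whole does not stand out. In RNA from sorted bulk cells, fewer cells of a type and less RNA per cell cannot be told apart. On the deposited log2(FPKM + 1) scale, 40 of the 53 had a mean of 1 or more. Of these, 1 was higher by 1 or more (Srxn1, 1.09) and 1 was lower (Selenoh, -2.40), against 2.31% and 2.64% of all genes, and Gstm1 (-1.38) fell just short of the mean required, at 0.97.

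**Figure D1:**
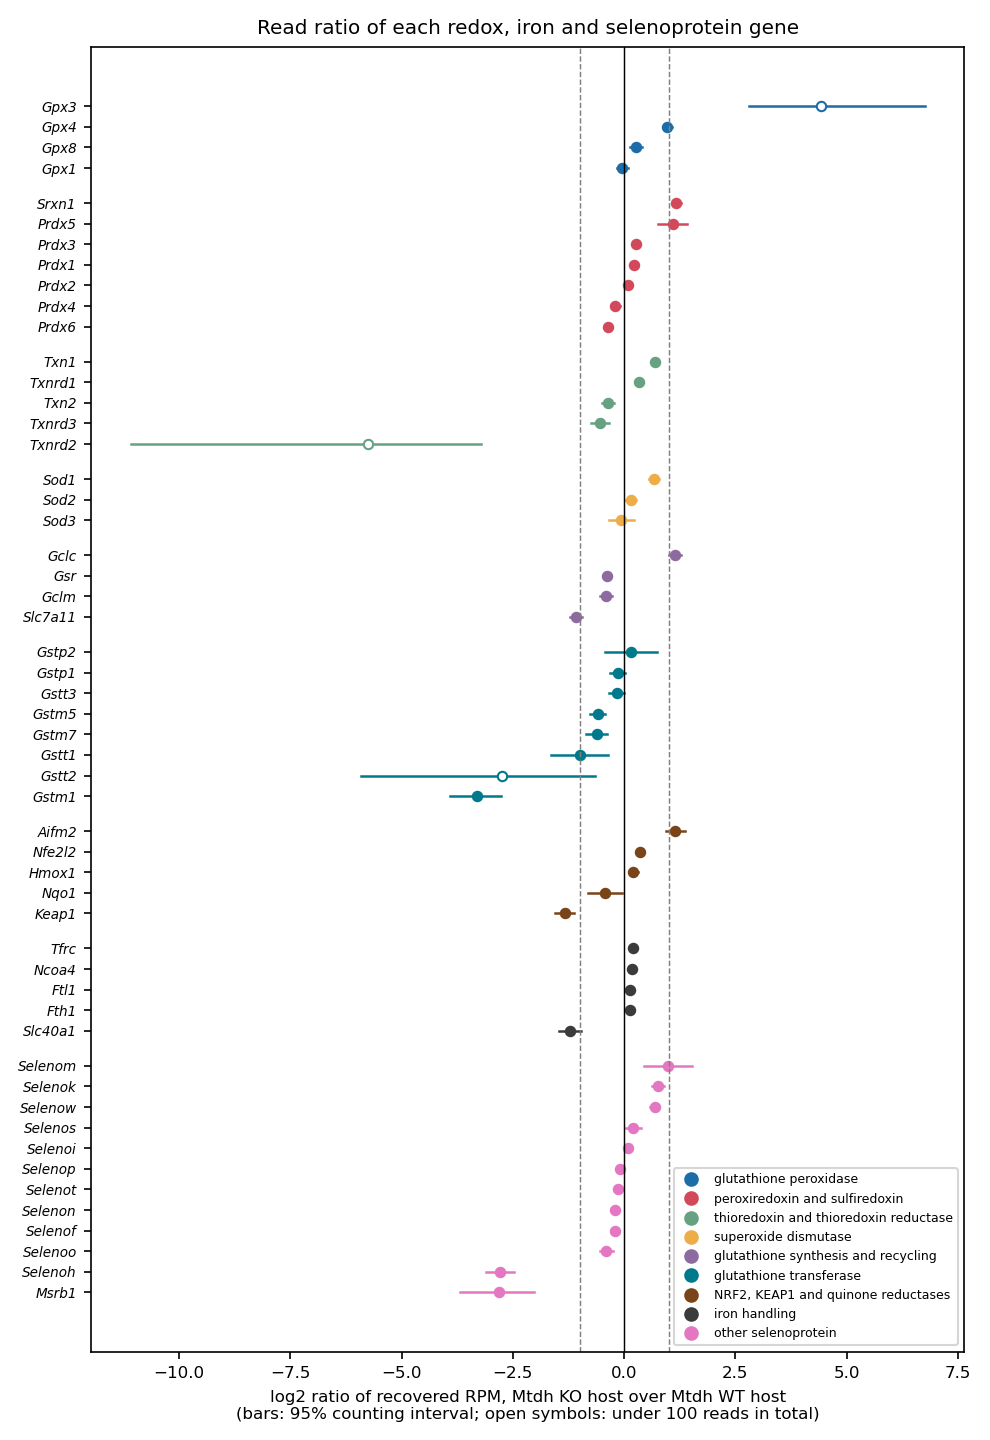
Log2 ratio of recovered RPM (x axis, KO host over WT host) for the 53 genes, grouped by role, with bars for the 95% counting interval and dashed lines at 2-fold. Most genes lie between the dashed lines, and the widest intervals belong to Txnrd2 (1 and 60 reads), Gpx3 (58 and 3 reads) and Gstt2 (2 and 15 reads).

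The share of genes past 2-fold differed with their reads. Among genes with 100 to 300 reads, 27.5% were higher and 32.5% lower, and 18.1% had 5 reads or fewer in 1 of the libraries. Among genes with 300 to 1000 reads the shares were 12.8% and 20.1%, with 1000 to 3000 reads 4.05% and 7.26%, with 3000 to 10000 reads 1.81% and 1.37%, and with 10000 or more 1.93% and 0.704%. Among all genes with 1000 or more reads the shares were 2.84% and 3.92%, and 2 of the 36 redox, iron and selenoprotein genes of that depth were higher and 1 was lower. Of the 10 genes past 2-fold, Srxn1 with 4216 reads, Slc7a11 with 2114 and Gclc with 2059 are those at a depth where few genes differed that much. The others had fewer than 1000 reads, where 2-fold ratios were more frequent; how often genes of that depth reached the 6.86-fold to 9.96-fold of Selenoh, Msrb1 and Gstm1 was not counted. The counting intervals say nothing of the spread between animals or preparations, which 1 library per group cannot give.

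**Figure D2:**
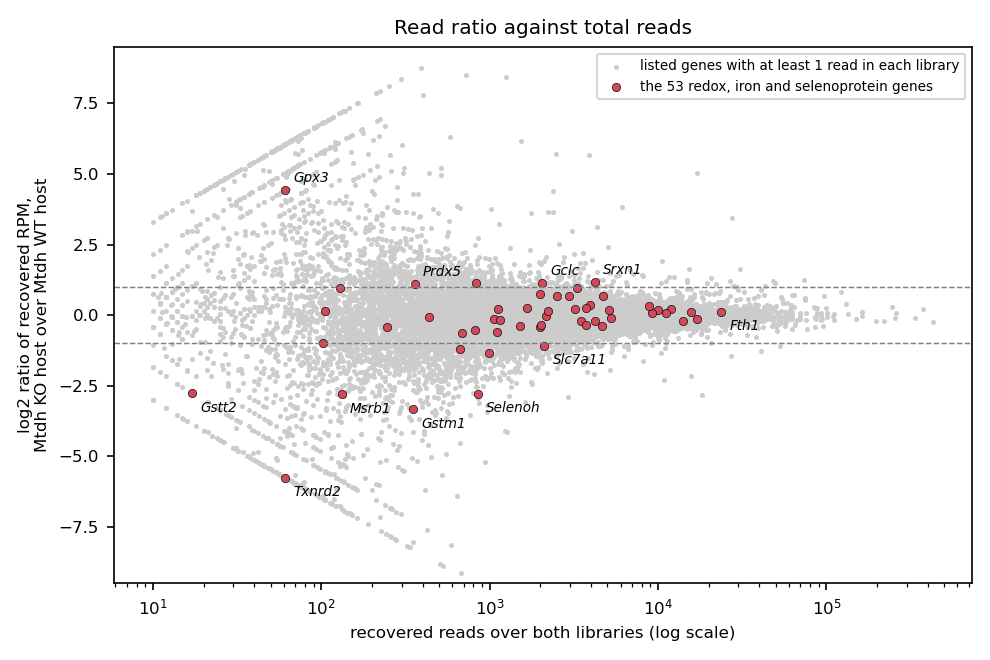
Log2 ratio of recovered RPM (y axis, KO host over WT host) against recovered reads over both libraries (x axis, log scale). Grey points are listed genes with at least 1 read in each library, red points are the 53 genes, and the dashed lines mark 2-fold. The grey cloud narrows with depth, and Srxn1 and Slc7a11 sit at its edge while Prdx5 and Msrb1 sit within it.

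**Figure D3:**
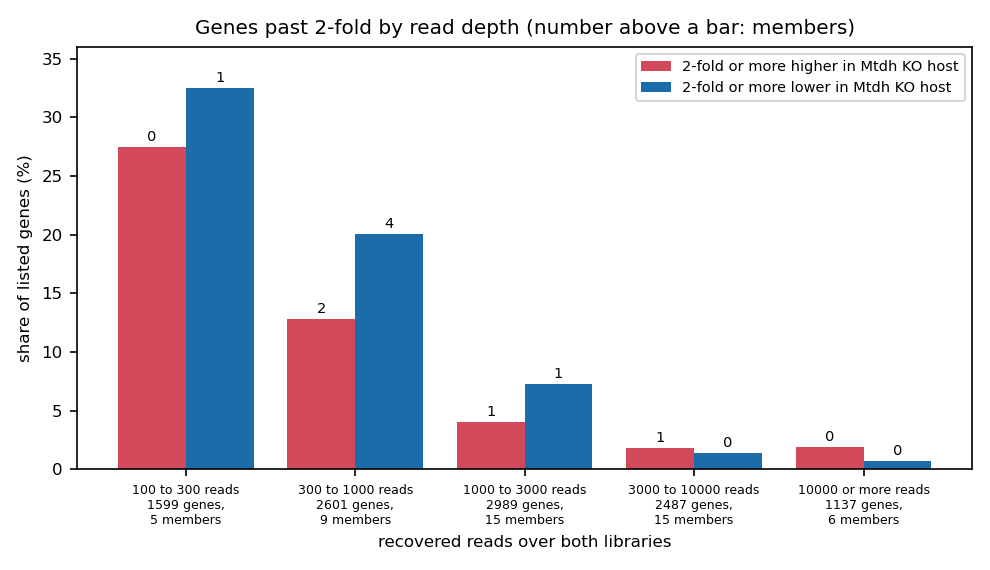
Share of listed genes (y axis, %) that were 2-fold or more higher (red) or lower (blue) in the KO host library, by recovered reads over both libraries (x axis). The numbers above the bars count the redox, iron and selenoprotein genes, of which 6 of the 10 past 2-fold have 300 to 1000 reads.

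Glutathione peroxidases reduce peroxides with glutathione. Gpx4, which reduces phospholipid hydroperoxides within membranes, had 2093.6 reads (89.5 RPM) in the KO host library and 1190.5 reads (45.7 RPM) in the WT host library. The ratio was 1.96 (interval 1.83 to 2.11), just under 2-fold, and it passed 2-fold when ratios were centred on the median of all genes. The reads of Gpx4 were not whole. Gpx1, the abundant cytosolic enzyme, had 1007 reads in the KO host library and 1152 in the WT host library, a ratio of 0.975 whose interval (0.895 to 1.06) spans 1. As levels in RPM per kilobase of exon, Gpx4 stood at 51.9 and Gpx1 at 29.9 in the KO host library, and at 26.5 and 30.7 in the WT host library. Gpx8, a cysteine enzyme of the endoplasmic reticulum without a TGA in its frame, had 860 and 799 reads in the KO and WT host libraries (ratio 1.2). Gpx3, the secreted form, had 58 reads in the KO host library and 3 in the WT host library, under the minimum of 100 reads in total.

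Peroxiredoxins take up most cytosolic and mitochondrial peroxide, and sulfiredoxin (Srxn1) restores those that have been overoxidised. Srxn1 (ENSMUSG00000032802, chromosome 2, 151947436 to 151953296, plus strand, build mm39) had 2821 reads and FPKM 20.6 in the KO host library, against 1395 reads and FPKM 9.13 in the WT host library. Its ratio of 2.25 (2.11 to 2.41) was the highest of the 50 genes with 100 or more reads. Prdx1 to Prdx4 differed less. Prdx1, cytosolic, had 6117 reads in the KO host library and 5887.9 in the WT host library, a ratio of 1.16. The other cytosolic form, Prdx2, had 5481.8 and 5745.9 reads in the KO and WT host libraries, a ratio of 1.06. Prdx3, of mitochondria, stood at 1.2, and Prdx4, of the endoplasmic reticulum, at 0.870. Prdx5, found in mitochondria, peroxisomes and cytosol, had only 235.2 and 123 reads in the KO and WT host libraries, and its ratio was 2.13 (1.71 to 2.67). Prdx6, the 1-cysteine form, which uses glutathione, was at 1526 reads in the KO host library and 2186 in the WT host library, a ratio of 0.778. Of the 7 genes, 2 (28.6%) were past 2-fold, both higher, where 8.9% of all genes were, and Prdx5 lies at a depth where 12.8% of genes were. A ratio above 1 was seen in 5 of the 7, against 4920 above and 5893 below over all genes. The median of the 7 was 0.21 on the log2 scale, against -0.06 over all genes.

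Both motifs searched were held by the promoters of Srxn1, Prdx1, Gstm5 (ratio 0.661) and Selenok (1.70). Of these, the promoters of Srxn1, with the highest ratio, and of Prdx1, the best covered of the peroxiredoxins, are shown. The promoters come from the RefSeq table of build GRCm38.p6, 250 bases before to 50 after the start. Capitals mark matches, on either strand, to TGACNNNGC, the core of the antioxidant response element bound by NRF2, and to TGACTCA, an AP-1 site; in Prdx1 a match of each overlaps.
Srxn1, chr2:152105274-152105573, plus strand: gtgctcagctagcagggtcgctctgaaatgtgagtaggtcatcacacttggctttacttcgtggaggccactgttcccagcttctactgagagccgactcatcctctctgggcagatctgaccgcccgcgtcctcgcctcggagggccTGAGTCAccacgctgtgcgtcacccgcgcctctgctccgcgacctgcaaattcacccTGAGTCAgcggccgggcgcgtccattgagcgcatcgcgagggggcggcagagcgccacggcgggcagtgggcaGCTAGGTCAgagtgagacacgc
Prdx1, chr4:116685349-116685648, plus strand: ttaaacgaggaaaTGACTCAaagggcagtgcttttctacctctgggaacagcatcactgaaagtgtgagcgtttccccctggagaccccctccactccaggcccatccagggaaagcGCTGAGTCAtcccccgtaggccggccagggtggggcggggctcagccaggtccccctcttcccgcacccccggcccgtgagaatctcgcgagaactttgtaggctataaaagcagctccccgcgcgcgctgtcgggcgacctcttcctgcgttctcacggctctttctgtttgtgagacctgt
Of 46 of the 53 genes with a promoter in the table, 10 (21.7%) held TGACNNNGC, against 16.3% of 10034 listed genes, and 6 (13.0%) held TGACTCA, against 4.88%. The 10 genes with TGACNNNGC were Gclm, Gstm5, Gstm7, Ncoa4, Nfe2l2, Prdx1, Selenok, Sod1, Srxn1 and Txnrd1, of which 7 had a ratio above 1 and 3 below 1. Those with TGACTCA were Gstm5, Gstp1, Gstp2, Prdx1, Selenok and Srxn1, of which 4 had a ratio above 1 and 2 below 1. A match is a description of the letters, and binding was not measured.

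Thioredoxin passes electrons to peroxiredoxins and is recharged by thioredoxin reductase. Txn1, the cytosolic thioredoxin, had 2783 reads (119 RPM) in the KO host library and 1917 reads (73.5 RPM) in the WT host library, a ratio of 1.62 (1.53 to 1.72). Its reductase Txnrd1 had 4661 and 4129.9 reads in the KO and WT host libraries, a ratio of 1.26. The mitochondrial pair had fewer reads in the KO host library. Txn2 had 826 reads in the KO host library and 1183 in the WT host library (0.778, 0.711 to 0.852). Txnrd2 had 1 read in the KO host library and 60 in the WT host library, under the minimum of 100 reads in total. Txnrd3, known from testis, had 311 and 504 reads in the KO and WT host libraries (0.688). None of these genes with 100 or more reads passed 2-fold.

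Superoxide dismutases turn superoxide into hydrogen peroxide. Sod1, the copper and zinc enzyme of the cytosol, had 1487 reads (63.6 RPM) in the KO host library and 1039 reads (39.9 RPM) in the WT host library, a ratio of 1.60 (1.47 to 1.73). Ccs, the chaperone that loads copper onto Sod1, was further apart, at 578 and 160 reads in the KO and WT host libraries, a ratio of 4.03 (3.38 to 4.83). Sod2, the manganese enzyme of mitochondria, had 1115 and 1121.9 reads in the KO and WT host libraries, and Sod3, the secreted form, had 203 in the KO host library and 236 in the WT host library. Their ratios of 1.11 and 0.959 were close to 1.

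Glutathione synthesis starts with cystine import and the joining of cysteine to glutamate. The genes of these steps lay on both sides of 1. Slc7a11, the cystine and glutamate antiporter (chromosome 3, 49846975 to 50398063, minus strand, build mm39), had 630.2 reads (27.0 RPM) in the KO host library and 1484.2 reads (56.9 RPM) in the WT host library, 2.11-fold lower (interval 1.92 to 2.32), with reads that were not whole. Its genomic span of 551089 bases gives FPKM of 0.0489 and 0.103 in the KO and WT host libraries, so the deposited log2 scale shows a difference of only -0.07. Gclc, the catalytic subunit of glutamate-cysteine ligase and the rate-limiting step, had 1367 reads in the KO host library and 692 in the WT host library, 2.20-fold higher (2.01 to 2.42). Its modifier subunit Gclm had 801 and 1179 reads in the KO and WT host libraries, a ratio of 0.757 (0.692 to 0.829). As levels in RPM per kilobase of exon, Gclc stood at 15.5 and Gclm at 5.45 in the KO host library, while in the WT host library they were about equal, at 7.05 and 7.19. Gsr, which recycles oxidised glutathione, had 1912 and 2767 reads in the KO and WT host libraries, a ratio of 0.770 (0.726 to 0.817).

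Of the other genes of glutathione turnover and cysteine supply, 21 of 25 were listed and 17 had 100 or more reads. Of these, 4 (23.5%) were 2-fold higher in the KO host library and 0 were lower, where all genes gave 8.9% and 12%. The filter bears on this split: Chac2, Ggct and Mgst1 passed the minimum of 100 reads through the KO host library alone, and with 100 to 300 reads 27.5% of all genes were 2-fold higher. Gstk1, a transferase of the kappa class named here after its values were seen, was at 0 reads in the KO host library and 88 in the WT host library, under the minimum, so it is in neither count. Chac2, which degrades glutathione, had 111 reads in the KO host library and 2 in the WT host library (ratio 61.9, 16.7 to 517). Ggct, which cleaves gamma-glutamyl dipeptides, had 116 reads in the KO host library and was listed at 0 in the WT host library. Mgst1, a microsomal transferase, had 101 and 20 reads in the KO and WT host libraries. The well-covered Abcc1, which exports glutathione conjugates, was at a ratio of 1.0, and Glrx3, a glutaredoxin, at 0.921.

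Glutathione transferases couple glutathione to electrophiles, and here most lay below 1. Of the 7 with 100 or more reads, 6 were below 1 and 1 above, with a median log2 ratio of -0.60. Over all genes of that depth, 5893 were below and 4920 above, with a median of -0.06. Of the 7, 1 was 2-fold lower (14.3%), where 12% of all genes were. That gene, Gstm1, passed the minimum of 100 reads through the WT host library alone. It lies at a depth (300 to 1000 reads) where 20.1% of all genes were 2-fold lower. The mu class genes sit on chromosome 3, where the 3 listed ones lie within 122 kb. Gstm1 had 29 reads (FPKM 0.217) in the KO host library and 322 reads (FPKM 2.16) in the WT host library, 9.96-fold lower (6.80 to 15.1). Gstm5 had 410 and 692 reads in the KO and WT host libraries, a ratio of 0.661 (0.583 to 0.747), and Gstm7 had 252 (KO host) and 431 (WT host), a ratio of 0.652 (0.556 to 0.763). Together the 3 genes had 691 reads in the KO host library and 1445 in the WT host library, a ratio of 0.533 (0.486 to 0.584).
The theta class genes lie within 63.3 kb of chromosome 10. Gstt1 had 32 and 71 reads in the KO and WT host libraries and Gstt2 had 2 (KO host) and 15 (WT host). Gstt3, the best covered, had 510.7 reads in the KO host library and 639 in the WT host library, a ratio of 0.891 whose interval spans 1. The pi class pair on chromosome 19 is nearly identical in sequence, and the split of reads between them is uncertain. Gstp1 was at 477.6 and 589.6 reads in the KO and WT host libraries, a ratio of 0.903, and Gstp2 at 52.4 in each. The 3 mu and 3 theta genes thus all had a ratio below 1, where 5893 of all 10813 genes did. Gstt2 was under the minimum of 100 reads, and the interval of Gstt3 spans 1. Gstm1 was the only one past 2-fold among those with 100 or more reads. Markers listed for fibroblasts and pericytes also had lower sums in the KO host library. The 8 listed fibroblast markers (of 10) summed to 1222 RPM in the KO host library and 2052 RPM in the WT host library. The 5 listed pericyte and smooth muscle markers (of 10) summed to 91.8 RPM (KO host) and 425 RPM (WT host). Pdgfrb alone gave 72.3 RPM (KO host) and 353 RPM (WT host) of that. Of the 6 fibroblast markers with 100 or more reads, 3 were 2-fold lower (50%) and 0 higher, where all genes gave 12% and 8.9%. The 3 were Col3a1, Dcn and Dpt, of which Dcn and Dpt lie at a depth where 20.1% of genes were 2-fold lower. The filter bears on this split, as Dpt passed the minimum of 100 reads through the WT host library alone. Col3a1 (473.7 RPM in the KO host library, 1136 RPM in the WT host library) and Ogn (490.8 RPM in the KO host library, 594.9 RPM in the WT host library) gave most of the sum. Dcn and Dpt had 158 and 44 reads in the KO host library against 784 and 322 in the WT host library, whereas Pdgfra had 5056 (KO host) and 5834.1 (WT host), a ratio of 0.966. Cspg4, a pericyte marker, was at 0 in the KO host library and 190 reads in the WT host library. Py8119 has mesenchymal character, so tumour and stromal sources of these reads cannot be told apart. The part of stromal cells in the transferase values was not tested.

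NRF2 and KEAP1 lay on opposite sides of 1. Keap1, the adaptor that sends NRF2 for degradation, had 261 reads (FPKM 1.16) in the KO host library and 735 reads (FPKM 2.93) in the WT host library, 2.53-fold lower (2.19 to 2.92). Nfe2l2 had 2110 reads in the KO host library and 1849 in the WT host library, a ratio of 1.27 (1.19 to 1.36). As levels in RPM per kilobase of exon, Nfe2l2 stood at 23.8 and Keap1 at 2.38 in the KO host library, and at 18.7 and 6.01 in the WT host library. Genes known as NRF2 targets went both ways. Srxn1 and Gclc were past 2-fold higher and Txnrd1 stood at 1.26, whereas Slc7a11 was past 2-fold lower and Gclm and Gsr stood at 0.757 and 0.770. Nqo1, a quinone reductase often used as a marker of NRF2 activity, had 99 reads in the KO host library and 148 in the WT host library (0.746, 0.572 to 0.968). Hmox1, which breaks down heme, had 1629 and 1574 reads in the KO and WT host libraries (1.15). Aifm2, which keeps coenzyme Q reduced at membranes, had 551 reads in the KO host library and 277 in the WT host library, 2.22-fold higher (1.92 to 2.57).

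Among 23 other NRF2 targets and partners, 21 were listed and 19 had 100 or more reads; 2 were 2-fold higher in the KO host library, 1 was lower, and the median log2 ratio was -0.05. Mafk, a small MAF partner of NRF2, had 900 and 477.4 reads in the KO and WT host libraries (2.10), and Cbr1, a carbonyl reductase, 136 (KO host) and 56 (WT host), a ratio of 2.71. Txnip, the thioredoxin-binding protein, had 593 reads in the KO host library and 1599 in the WT host library, 2.42-fold lower. Sqstm1, which can sequester KEAP1, had 18782.6 and 15758.2 reads in the KO and WT host libraries (1.33). Cul3, the ligase scaffold that KEAP1 recruits, was at 0.867. The shares past 2-fold were 10.5% higher and 5.26% lower, where all genes gave 8.9% and 12%. The filter bears on this split, as Cbr1 passed the minimum of 100 reads through the KO host library alone. It lies at a depth (100 to 300 reads) where 27.5% of all genes were 2-fold higher.

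Of the 5 iron genes, 4 had ratios between 1.09 and 1.14, and the exporter Slc40a1 was lower in the KO host library. Ftl1, the ferritin light chain, had 7734.9 reads (FPKM 170.4) in the KO host library and 7906.6 reads (FPKM 156.3) in the WT host library, a ratio of 1.09 (1.06 to 1.13). Fth1, the heavy chain with ferroxidase activity, had 11734.6 and 12022.7 reads in the KO and WT host libraries, a ratio of 1.09 (1.06 to 1.12). Fth1 had 1.52 reads per Ftl1 read in both libraries. The genes with an iron-responsive element in the 5′ UTR thus include this pair at 1.09 and Slc40a1 far from it. Tfrc, the transferrin receptor, had 5053.8 reads in the KO host library and 4933 in the WT host library (1.14), and Ncoa4, which delivers ferritin to lysosomes, had 2581.9 (KO host) and 2549 (WT host), a ratio of 1.13. Slc40a1 (ferroportin), the iron exporter, had 185 reads in the KO host library and 478 in the WT host library, 2.32-fold lower (1.95 to 2.76). Slc40a1 is well known from macrophages, which carry CD45 and which the sort should remove. Their 12 listed markers (of 15) summed to 227 RPM in the KO host library and 193 RPM in the WT host library, of which Lyz2 alone gave 148 RPM (KO host) and 134 RPM (WT host). Of the 8 markers with 100 or more reads, 2 were 2-fold higher in the KO host library (25%) and 0 lower, where all genes gave 8.9% and 12%. Mpeg1 had 952 reads (KO host) and 378 reads (WT host), and Cd68 had 70 (KO host) and 33 (WT host). Cd68 lies at a depth where 27.5% of genes were 2-fold higher. Of the 8, 5 had a ratio above 1 and 3 below 1. The 3 were Cd163 with 55 reads (KO host) and 97 (WT host), Mrc1 with 67 (KO host) and 146 (WT host), and Cd14 with 257 (KO host) and 453 (WT host). Adgre1 had 153 reads (KO host) and 157 reads (WT host). No listed macrophage marker was at 0, and their part in the Slc40a1 value was not tested.

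Of 39 other genes of iron uptake, export, sensing and heme use, 31 were listed and 27 had 100 or more reads. In the KO host library 1 was 2-fold higher (3.70%) and 4 were lower (14.8%), where all genes gave 8.9% and 12%. The filter bears on this split, as Blvra, Blvrb and Iscu passed the minimum of 100 reads through the WT host library alone. They lie at a depth (100 to 300 reads) where 32.5% of all genes were 2-fold lower. Of the 27, 7 were above and 20 below a ratio of 1, with a median log2 ratio of -0.19, against 4920 above and 5893 below and a median of -0.06 over all genes. Slc25a28, a mitochondrial iron importer, had 124 reads in the KO host library and 665 in the WT host library, 4.81-fold lower. The biliverdin reductases, which act after Hmox1, had few reads in the KO host library: Blvrb 11 against 158 in the WT host library, and Blvra 1 against 115. Lrp1, which takes up the heme carrier hemopexin, had 71047.1 and 60153.9 reads in the KO and WT host libraries (1.32), and Cp, the ferroxidase ceruloplasmin, was at 0.994.

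Of the 12 remaining selenoproteins, 0 were 2-fold higher and 2 were lower (16.7%) in the KO host library, where all genes gave 8.9% and 12%. Selenoh, a nuclear redox protein (ENSMUSG00000076437, chromosome 2, 84499559 to 84501114, minus strand, build mm39), had 98 reads (FPKM 2.69) in the KO host library and 750 reads (FPKM 18.5) in the WT host library, 6.86-fold lower (5.55 to 8.56). Msrb1, which repairs oxidised methionine, had 15 reads in the KO host library and 117 in the WT host library, 7.0-fold lower (4.07 to 12.9). Both genes had whole reads. Selenoh lies at a depth where 20.1% of genes were 2-fold lower and Msrb1 at one where 32.5% were. Both passed the minimum of 100 reads through the WT host library alone. On the higher side, Selenow, a small thioredoxin-like protein, had 1755 reads in the KO host library and 1216 in the WT host library, a ratio of 1.61 (1.49 to 1.73). Selenok, a membrane protein of the endoplasmic reticulum that acts in protein degradation and palmitoylation, had 1195 and 784 reads in the KO and WT host libraries (1.70, 1.55 to 1.86). Selenom, a thioredoxin-like protein of the same compartment, had 83 and 47 reads in the KO and WT host libraries (1.97, 1.36 to 2.88).
The best covered selenoproteins lay close to 1. Selenot, of the endoplasmic reticulum, had 7615 reads in the KO host library and 9358 in the WT host library (0.907), and Selenof, which binds the glycoprotein folding sensor, had 6120.1 (KO host) and 7916.3 (WT host), a ratio of 0.862. Selenoi, an ethanolamine phosphotransferase, stood at 1.06, and Selenop at 0.935. Selenon, which responds to calcium in the endoplasmic reticulum, stood at 0.871, Selenos, a partner of Selenok in degradation, at 1.15, and Selenoo, a mitochondrial pseudokinase, at 0.760. Of the 12 genes, 5 were above 1 and 7 below 1, with a median log2 ratio of -0.12.

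Genes with a selenocysteine codon did not lie apart as a class. Of the 18, 16 had 100 or more reads, with 7 above 1 and 9 below 1 and a median log2 ratio of -0.07. Of the 35 without one, 34 had 100 or more reads, with 18 above and 16 below and a median of 0.11. The summed level of the 16 genes was 1493 RPM in the KO host library and 1480 RPM in the WT host library. The 11 genes of a list of selenocysteine insertion machinery all had 100 or more reads. Of these, 1 was 2-fold higher and 1 lower (9.09% each), where all genes gave 8.9% and 12%, and the median log2 ratio was -0.09. Eefsec, the elongation factor for selenocysteine, had 132 reads in the KO host library and 65 in the WT host library (2.26), and Sephs1, a homologue of selenophosphate synthetase, had 830 (KO host) and 1918 (WT host), 2.07-fold lower. Eefsec passed the minimum of 100 reads through the KO host library alone, and at its depth (100 to 300 reads) 27.5% of all genes were 2-fold higher. Pstk, the kinase that primes the selenocysteine tRNA, was at 1.71. Secisbp2l, a relative of the protein that binds the selenocysteine insertion element, was at 0.949, and Rpl30, a ribosomal protein that also binds it, at 0.940.

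Levels were compared between genes as RPM per kilobase of exon, with exon lengths from GENCODE M21. The length is that of all annotated exons of a gene merged, which can exceed that of the transcripts present. Whether only reads in exons were counted is not known. Comparisons between genes on this scale, here and above, are therefore approximate. The ferritin chains led, with Ftl1 at 246.9 in the KO host library and 226.3 in the WT host library and Fth1 at 144.7 (KO host) and 132.9 (WT host). Selenot stood at 94.8 in the KO host library and 104.5 in the WT host library, Txn1 at 113.2 (KO host) and 70.0 (WT host), and Selenow at 102.0 (KO host) and 63.4 (WT host). Prdx1 stood at 86.0 (KO host) and 74.2 (WT host) and Prdx2 at 76.9 (KO host) and 72.3 (WT host). On this scale of levels, Txn1 and Selenow thus stood above Selenot in the KO host library and below it in the WT host library. Selenoh stood at 3.71 in the KO host library and 25.4 in the WT host library. At the low end stood Gpx3, Txnrd2 and Gstt2.

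**Figure D4:**
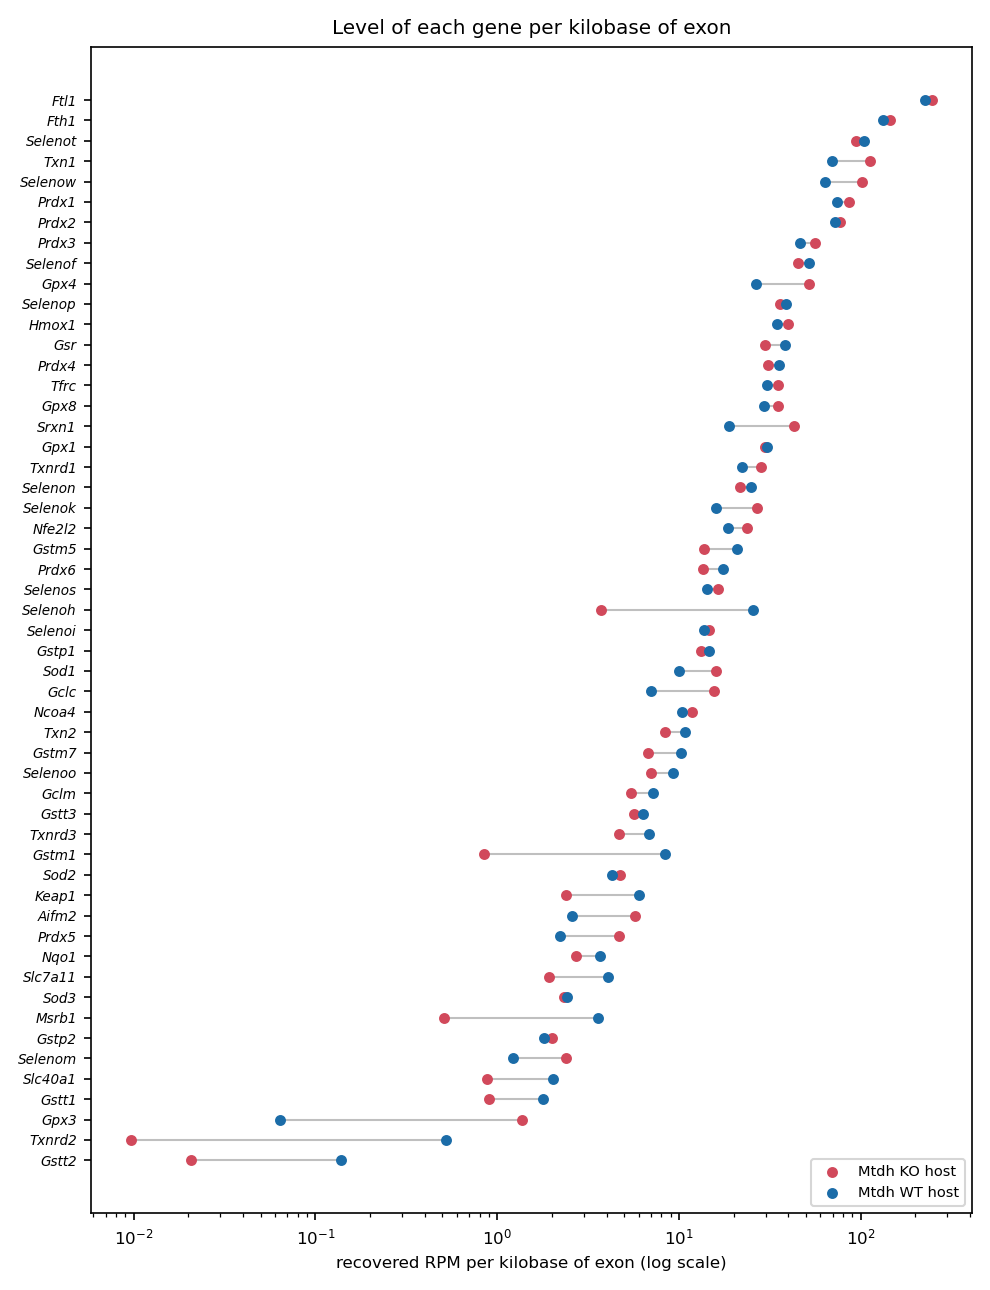
Level of each of the 53 genes as recovered RPM per kilobase of exon (x axis, log scale) in the library from the KO host (red) and the WT host (blue), ordered by the mean of both. Grey lines join the libraries, and the longest lines are those of low genes together with Selenoh and Gstm1.

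As a check of the labels, Mtdh itself had 23130.4 reads in the KO host library and 28376.5 in the WT host library, a ratio of 0.909, and since the injected cells carry the gene it says little on the host. The tumour line markers Vim and Krt8 were well covered in both libraries, with Vim at 67959.4 and 82646.6 reads and Krt8 at 4050 and 3172 in the KO and WT host libraries. Of 13 such markers, 11 were listed, all with 100 or more reads. Of these, 6 had a ratio above 1 (Krt8, Krt18, Krt19, Epcam, Cdh1 and Prrx1) and 5 below 1. In the KO host library 2 were 2-fold higher (18.2%) and 0 lower, where all genes gave 8.9% and 12%. They were Krt19 with 271 reads (KO host) and 100 (WT host), and Epcam with 151 (KO host) and 55 (WT host). Epcam passed the minimum through the KO host library alone. At its depth 27.5% of genes were 2-fold higher. Ptprc, the gene of CD45, had 64 reads in the KO host library and 46 in the WT host library. Erythroid markers were few, with 2 of 13 listed (Alas2 and Bpgm) and a sum of 35.6 RPM in the KO host library and 47.9 RPM in the WT host library.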

How the data were processed

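The members and the gene lists were chosen with earlier results of these data known. The authors deposited log2 values of FPKM + 1 for 12707 genes, 1 column per library. The submitters' processing notes name STAR 2.7.8a, Partek and mm39. For annotation, strand setting and multiply mapped reads, the handling is not given in the sources used here. FPKM was restored from the deposited log2 values, and its product with the deposited length (the genomic span) was taken. Low products fell on multiples of 1 step per library, and dividing by it gave reads. Under 1000 reads, 83.4% (KO host) and 84.9% (WT host) of values were whole within 0.1. The recovery was tested on simulated data. No count test was run, since each group has 1 library. At 0 stand 413 genes (KO host) and 511 genes (WT host). Genes past 2-fold in RPM with 100 or more reads in total, or past a log2 difference of 1 with the mean of both log2 values at 1 or above, were counted. All 53 members may be named. From each pathway list, the rule named the 3 genes with the widest ratio and the 2 with the highest level among those with 100 or more reads, and other genes named were chosen after their values were seen. Counting intervals are exact binomial (Clopper-Pearson, 95%, scipy 1.17.1) and cover counting error only, as PCR reads are not independent molecules. Python 3.11.15, numpy 2.4.6, pandas 2.3.3 and matplotlib 3.10.9 were used. Alternatives covered the added constant, low-value filters, scaling and genes with fractional reads.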

Additional observations from a re-analysis of the deposited data

How the results depend on the processing

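No paired analysis was possible because each group has 1 library. The 10 genes past 2-fold stayed past it under 3 other scalings (centred on the median of all genes, trimmed mean of M-values, upper quartile). Gpx4 and Selenom passed 2-fold when centred (log2 ratios 1.04 and 1.04) and with the trimmed mean (1.02 and 1.03). On the deposited scale, the counts of 1 higher and 1 lower became 3 and 2 with 0.1 added in place of 1, and 0 higher with 5 added; without a filter 2 were lower, and the median difference over the set was -0.032, against 0.09. In reads, the median log2 ratio over the set was -0.037, against 0.03, with a minimum of 10 reads. With a minimum of 1000 reads, added after the data were seen, 2 of 36 members were higher and 1 was lower, against 2.84% and 3.92% of all genes. With 10 reads the glutathione peroxidase median became 0.62, and the thioredoxin median -0.36 against -0.01. The thioredoxin median was 0.050 when centred and 0.038 with the trimmed mean, so its sign turned, and the iron median became 0.19 when centred, against 0.13. Other counts and medians kept their direction but some moved: the 2-fold higher count was 6, against 4, when centred and with the trimmed mean, and the median over the set was then 0.091 and 0.079. The median difference was 0.034 after quantile normalization, the glutathione transferase median -0.38 with 500 reads, and the median of the other selenoproteins -0.054, against -0.12, when centred. Depth limits the low genes most: Txnrd2, Gpx3 and Gstt2 were under 100 reads. For the pathway and marker lists no alternative was run. With 1 library per group none could be left out.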

Other observations

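Beyond the redox and iron set, genes of ferroptosis and other redox enzymes were described from lists of the same kind. Of 21 ferroptosis lipid genes and suppressors, 16 were listed and 13 had 100 or more reads, with 0 past 2-fold higher in the KO host library and 1 lower (7.69%), where all genes gave 8.9% and 12%. That gene was Cyb5r1, a cytochrome b5 reductase that can feed lipid peroxidation, with 410 reads in the KO host library and 1050 in the WT host library, 2.30-fold lower. Listed genes under the minimum are in neither count, and all had more reads in the KO host library. They were Alox5 with 63 reads (KO host) and 0 (WT host), Cisd1 with 62 (KO host) and 2 (WT host), and Gch1 with 24 (KO host) and 4 (WT host). Acsl4, which builds polyunsaturated fatty acids into phospholipids, had 11713.8 reads in the KO host library and 7539.2 in the WT host library (ratio 1.73, 1.68 to 1.78), a gap on the same side as Gpx4 (1.96) and Aifm2 (2.22), which act against lipid peroxidation. Mboat2, which remodels phospholipids, was at 0.595 and Scd1, which makes monounsaturated fatty acids, at 0.946.

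For 31 other redox enzymes, 28 entries were listed, with Nnt counted under 2 identifiers, and 25 entries had 100 or more reads. Of these, 1 was past 2-fold higher (4%) and 3 lower (12%), where all genes gave 8.9% and 12%. The filter bears on this split, as Nox4 and 1 Nnt entry passed the minimum of 100 reads through the WT host library alone. Both lie at a depth (300 to 1000 reads) where 20.1% of all genes were 2-fold lower. The higher gene was Ccs, described with Sod1. Nox4, an oxidase that produces hydrogen peroxide, had 80.8 reads in the KO host library and 541.4 in the WT host library, 6.01-fold lower, beside the lower fibroblast and pericyte markers; their part in it was not tested. Ero1a, which oxidises proteins in the endoplasmic reticulum, was at 0.975. Nnt, the mitochondrial transhydrogenase, is listed under 2 identifiers, with ratios of 0.992 and 0.160, and its values are uncertain. The entry at 0.160 is among the 3 counted as lower.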
